A study of Mus musculus with 6 samples.

Results

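The 9 complement genes C1qa, C1qb, C1qc, C1ra, C1s1, Serping1, C3, C4b and Cfb were followed in B16F10 melanoma grafts of the mouse hind footpad and flank skin. They were chosen by gene symbol, and all 9 were found among the 45777 genes listed and were among the 17210 genes with enough reads to be tested. B16F10 is a pigmented mouse melanoma cell line, and the study asked how a site that bears body weight differs from one that does not. Total RNA was sequenced from 3 footpad and 3 flank skin tumors, 1 library per tumor. The labels describe both groups as grafts in Foxn1-/- mice aged 8 weeks. These hosts lack a thymus and most T cells and keep their macrophages, fibroblasts and vessels. The methods of the study describe grafts at both sites of the same C57BL/6J animals, and name no host for the sequenced tumors. In other experiments the study also grafted B16F10 cells at both sites of Foxn1-null mice. The methods say that B16F10 cells were isolated from the tumor sites and name no way of sorting them, while the labels say that tumors were removed and their RNA extracted. Keratin and muscle genes of host cells were measured in the libraries, as given below, and so were collagen genes. The study states that melanoma cells also express collagen genes strongly, and graft and host are both mouse. In such mixed tissue, a difference in the number of cells of a type and a difference in RNA per cell cannot be told apart. Nothing in the labels says whether replicates came from separate animals, and p-values measure the spread between these tumors.

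Complement is a cascade of plasma and tissue proteins that tags surfaces and calls phagocytes. In the classical pathway, C1q, built of the A, B and C chains that C1qa, C1qb and C1qc encode, binds immune complexes or dying cells and carries the proteases C1r and C1s. C1s cleaves C4 and C2 into a convertase that cleaves C3, the alternative pathway amplifies this with factor B, and the C1 inhibitor, the product of Serping1, removes C1r and C1s from the complex. In many tissues macrophages are the main source of C1q, and fibroblasts and other stromal cells make C1r, C1s, C3 and C4.

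The C1q chains lie side by side on chromosome 4 of GRCm38.p6 (C1qb, Gene ID 12260, chr4:136880126-136886200; C1qc, Gene ID 12262, chr4:136889801-136892936; C1qa, Gene ID 12259, chr4:136895916-136898844). C1ra (Gene ID 50909, chr6:124512621-124523440) and C1s1 (Gene ID 50908, chr6:124530344-124542392) are neighbours on chromosome 6. C4b (Gene ID 12268, chr17:34728139-34743902) and Cfb (Gene ID 14962, chr17:34856374-34862514) lie in the class III region of the major histocompatibility complex. C3 (Gene ID 12266, chr17:57203967-57228136) lies elsewhere on chromosome 17, and Serping1 (Gene ID 12258, chr2:84765360-84775444) on chromosome 2. All 9 are annotated as protein coding. Of these, C1ra, C4b and C1s1 have a near-identical copy with which reads could be shared. Of all 50-base windows of the transcript, C1ra shared 48.0% with C1rb, C4b 35.2% with C4a and C1s1 24.3% with C1s2. How far this sharing altered their counts was not measured.

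Promoter sequence is shown for a member of each set that the comparison of C1q with C1r, C1s, C3 and C4 rests on, where the 250 bases before the RefSeq start of GRCm38.p6 held no annotated exon. Capitals mark matches to GGANNNTCC, a core of the sites that NF-kB factors bind. It was searched on both strands together with the interferon-response core AAANNGAAA, the STAT core TTCNNNGAA and the PU.1 core GAGGAAGT.
C1qb, minus strand, chr4:136886201-136886450: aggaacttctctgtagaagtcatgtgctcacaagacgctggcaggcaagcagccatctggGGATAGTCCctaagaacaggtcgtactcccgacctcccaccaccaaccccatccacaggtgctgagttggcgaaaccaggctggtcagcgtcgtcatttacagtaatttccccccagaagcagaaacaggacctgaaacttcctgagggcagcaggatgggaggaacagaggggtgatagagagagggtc
C1s1, minus strand, chr6:124542360-124542609: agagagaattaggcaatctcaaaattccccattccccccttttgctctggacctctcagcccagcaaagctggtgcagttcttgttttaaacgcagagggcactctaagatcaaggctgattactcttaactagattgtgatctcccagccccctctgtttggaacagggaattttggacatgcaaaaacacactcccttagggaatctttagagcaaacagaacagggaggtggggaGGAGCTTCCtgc
C3, minus strand, chr17:57228137-57228386: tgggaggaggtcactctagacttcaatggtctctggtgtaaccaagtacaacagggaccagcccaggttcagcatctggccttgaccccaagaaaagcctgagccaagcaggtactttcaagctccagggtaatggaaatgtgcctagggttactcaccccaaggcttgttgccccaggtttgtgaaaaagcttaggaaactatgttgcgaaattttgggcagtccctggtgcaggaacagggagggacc
In windows from 250 bases before to 50 after the start, C1qb and C1s1 each held a match to the NF-kB core, at positions -190 and -12 from the start, and C3 held none of the 4 motifs. The windows of C1qc and C1ra, not shown because they held annotated exon, were searched too. C1qc held a match to the PU.1 core at -195 and C1ra to the STAT core at 32. The start of C1qb used here was not found in the transcripts of another gene annotation, GENCODE. Of the 32851 such windows of all genes, 8.624% held the NF-kB core, 10.55% the interferon-response core, 8.298% the STAT core and 3.202% the PU.1 core. Such matches are letters only, and no binding was measured.

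Reads on genes numbered 46529649 to 66364366 per tumor, and 3 reads, the smallest number taken as detected, equal 0.0438 to 0.0673 CPM (read counts relative to library size, scaled by the TMM method). Pairs of tumors of 1 site differed by far more than sampling noise, with a chi-square of 46.5 to 403 per gene. A pair of tumors stood apart. Footpad replicate 2 had 546 summed CPM of 8 keratinocyte markers and 489 of 8 skeletal muscle markers, against 8.19 to 29.5 and 6.10 to 29.9 in the other footpad tumors. Flank skin replicate 1 had the lowest mean log2 CPM of the macrophage markers, 0.50, against 2.97 and 1.93 in flank skin replicates 2 and 3. Its mean of the fibroblast markers was also the lowest, at 0.89, but near that of replicate 3, at 1.31, with replicate 2 at 3.49. Values without these tumors are given where they bear on a result.

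Among the 9 genes, C4b alone passed the test between the sites, and it was lower in the footpad. In each comparison edgeR's quasi-likelihood test was used over all genes with Benjamini-Hochberg adjustment, and calls needed both an adjusted p under 0.05 and at least a 2-fold difference. Of all genes tested, 2.89% were called higher and 0.872% lower in the footpad, and the 9 genes gave 0 calls higher and 1 lower. Their median log2 fold change was 0.53 against -0.0042 for all genes tested. For Serping1 and Cfb all 3 footpad tumors lay above all 3 flank skin tumors, an arrangement found in 17.5% of all genes tested. C4b was lower in every footpad tumor, as were 14.9% of all genes tested. The other 6 genes overlapped between the sites.

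**Figure D1:**
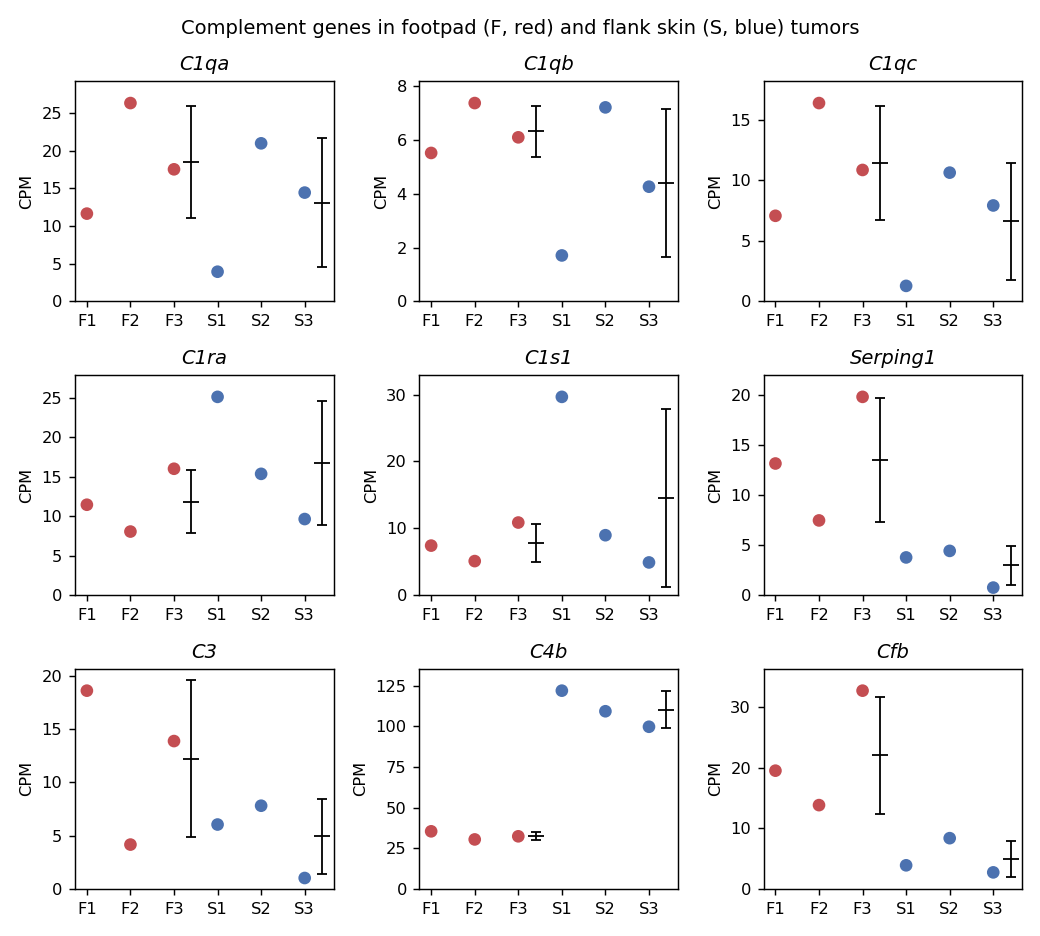
Each panel plots 1 complement gene in CPM (y axis) in footpad tumors 1 to 3 (F1 to F3, red) and flank skin tumors 1 to 3 (S1 to S3, blue), with the mean and SD of each site in black. The sites separate for C4b, with 30.4 to 35.4 CPM in the footpad against 99.7 to 122 in the flank skin, and for Serping1 and Cfb in the other direction.

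The C1q chains, the recognition part of C1, overlapped between the sites, did not pass the test, and varied widely among the tumors of a site. With the tumors of each site in the order of their replicate numbers, C1qa was at 11.7, 26.3 and 17.5 CPM in the footpad against 3.93, 21.0 and 14.4 CPM in the flank skin. C1qb was at 5.52, 7.38 and 6.10 CPM in the footpad against 1.71, 7.22 and 4.27 CPM in the flank skin. C1qc was at 7.07, 16.4 and 10.9 CPM in the footpad against 1.28, 10.6 and 7.93 CPM in the flank skin. For all 3 chains replicate 2 was the highest tumor of each site, flank skin replicate 1 was the lowest of all 6, and the sites overlapped. The log2 fold change of footpad over flank skin was 0.50 (SE 0.56) for C1qa, 0.53 (SE 0.47) for C1qb and 0.79 (SE 0.67) for C1qc, with edgeR adjusted p of 0.614, 0.522 and 0.496. These values moved with single tumors. For C1qa, C1qb and C1qc in turn they were 0.06, 0.14 and 0.30 without flank skin replicate 1, 0.15, 0.40 and 0.44 without footpad replicate 2, and 1.00, 1.08 and 1.31 without flank skin replicate 2. None was called in any of the 13 alternatives tried.

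C1qa was the highest of the chains in every tumor. On the scale of FPKM, the deposited level corrected for transcript length, C1qa made up 47.9% to 52.5% of the summed C1q FPKM in the footpad and 54.1% to 57.0% in the flank skin, C1qb 14.4% to 22.3% and 15.6% to 24.2%, and C1qc 29.8% to 33.1% and 18.8% to 30.3%. The ratio of C1qc to C1qa in FPKM was 0.621, 0.630 and 0.623 in the footpad and 0.330, 0.511 and 0.560 in the flank skin. It was higher in every footpad tumor, and the lowest value was again that of flank skin replicate 1. Over the 6 tumors, which share site and cell makeup, Pearson's r of log2 CPM between chains was 0.96 to 0.99, as a description.

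C1r and C1s, the proteases that C1q carries, had negative fold changes, and 1 tumor decided this. C1ra was at 11.4, 8.05 and 16 CPM in the footpad against 25.1, 15.4 and 9.64 CPM in the flank skin. C1s1 was at 7.41, 5.09 and 10.9 CPM in the footpad against 29.7, 8.96 and 4.89 CPM in the flank skin. Flank skin replicate 1 was the highest tumor for both proteases, whereas it was the lowest for C1q, and the other 5 tumors of the 2 sites were intermixed. The log2 fold change was -0.50 (SE 0.38) for C1ra, with an edgeR adjusted p of 0.450, and -0.90 (SE 0.63) for C1s1, with an edgeR adjusted p of 0.409. Without flank skin replicate 1 the value of C1ra was -0.08, and that of C1s1 turned to 0.16. The ratio of C1s1 to C1ra in FPKM was 0.602, 0.589 and 0.633 in the footpad. It was 1.10, 0.550 and 0.475 in the flank skin, highest in the same tumor.

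Serping1, which encodes the serpin that inactivates C1r and C1s, did not follow the proteases. It was at 13.1, 7.45 and 19.8 CPM in the footpad (13.5 ± 6.17, SD, n = 3) against 3.76, 4.41 and 0.751 CPM in the flank skin (2.97 ± 1.95, SD, n = 3). The lowest footpad tumor lay above the highest flank skin tumor. The log2 fold change of 2.18 (SE 0.64) had an edgeR adjusted p of 0.0902 and was not called. DESeq2, which called 7.78% of the genes it tested in either direction, called it at an adjusted p of 0.00061, and the other 12 of 13 alternatives did not, with adjusted p of up to 0.246. Set against its targets, the inhibitor separated the sites further. The FPKM of Serping1 divided by the mean FPKM of C1ra and C1s1 was 2.15, 1.75 and 2.30 in the footpad and 0.215, 0.556 and 0.158 in the flank skin. The inhibitor transcript was thus above the mean of the protease transcripts in all 3 footpad tumors and below it in all 3 flank skin tumors, given as a description with no test.

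C4b, which encodes C4, gave the steadiest values of the 9. It was at 35.4, 30.4 and 32.4 CPM in the footpad (32.7 ± 2.52, SD, n = 3) against 122, 109 and 99.7 CPM in the flank skin (110 ± 11.1, SD, n = 3). The lowest flank skin tumor was far above the highest footpad tumor. C4b was 3.37-fold lower in the footpad, with a log2 fold change of -1.75 (SE 0.14) and an edgeR adjusted p of 0.00677. With the reads of its copy C4a added, the log2 fold change was -1.71, with an edgeR adjusted p of 0.00677. C4a itself was at 4.44, 2.01 and 3.14 CPM in the footpad against 8.35, 7.89 and 6.62 CPM in the flank skin, lower in every footpad tumor. Its log2 fold change of -1.25 (SE 0.32) had an edgeR adjusted p of 0.0669 and was not called. Without footpad replicate 3 the call of C4b was lost at -1.75, with an edgeR adjusted p of 0.0541, in a fit that called 0 of all genes.

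C3, the component on which all pathways meet, was at 18.6, 4.16 and 13.9 CPM in the footpad against 6.04, 7.80 and 1.02 CPM in the flank skin. Footpad replicate 2 lay among the flank skin tumors, and the log2 fold change of 1.30 (SE 0.76) had an edgeR adjusted p of 0.325. Cfb, which encodes factor B of the alternative pathway, was at 19.5, 13.8 and 32.7 CPM in the footpad (22.0 ± 9.70, SD, n = 3) against 3.90, 8.38 and 2.73 CPM in the flank skin (5.0 ± 2.98, SD, n = 3). The groups did not overlap. The log2 fold change of Cfb was 2.14 (SE 0.48), and its edgeR adjusted p of 0.0504 was just short of the threshold. Of 13 alternatives 5 called it and 8 did not. DESeq2 called it at an adjusted p of 1.04e-05, and edgeR did without footpad replicate 2, at 2.38 and an adjusted p of 0.0423. Without flank skin replicate 1 it was 1.98, with an edgeR adjusted p of 0.107, and without footpad replicate 3 it was 1.74, with an edgeR adjusted p of 0.154, the largest of all. Cfb, Serping1 and C3 had the same order among the flank skin tumors, highest in replicate 2 and lowest in replicate 3, and each was lowest of the footpad tumors in replicate 2. Over the 6 tumors r of log2 CPM was 0.94 between Serping1 and Cfb and 0.91 between Serping1 and C3, and -0.86 between C4b and Cfb. These r values include the difference between the sites.

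**Figure D2:**
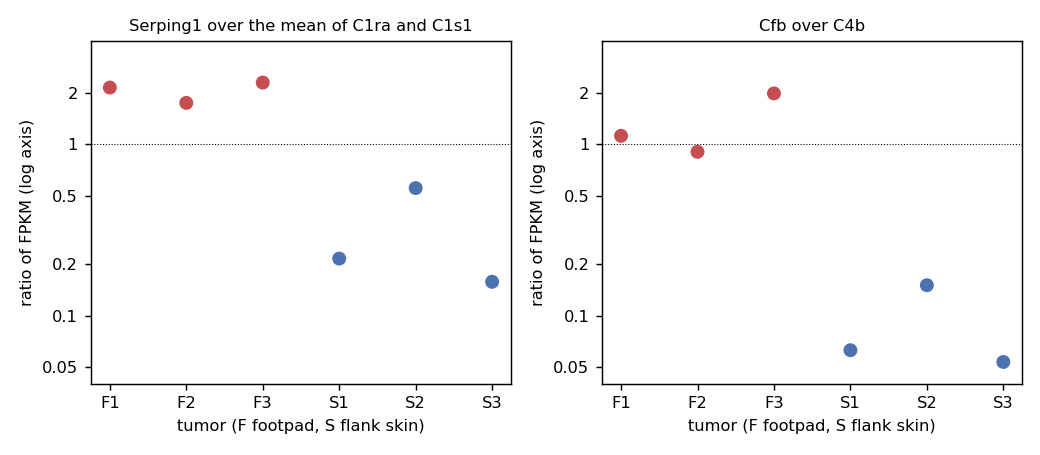
The left panel plots the FPKM of Serping1 over the mean FPKM of C1ra and C1s1 and the right panel that of Cfb over C4b, on log axes, for footpad tumors 1 to 3 (F, red) and flank skin tumors 1 to 3 (S, blue), with a dotted line where the ratio is 1. In the footpad the left ratio was 1.75 to 2.30 and the right 0.906 to 1.99, and in the flank skin 0.158 to 0.556 and 0.0537 to 0.151.

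The C4 gene serves the classical and the factor B gene the alternative C3 convertase, and their relative levels differed between the sites. Cfb was higher and C4b lower in every footpad tumor, so their ratio had to separate the sites and is no further result. The ratio of Cfb to C4b in FPKM was 1.12, 0.906 and 1.99 in the footpad and 0.0628, 0.151 and 0.0537 in the flank skin. In the footpad the order of mean FPKM was C1qa 15.5, C1qc 9.69, Cfb 7.23, Serping1 6.51, C4b 5.38, C1qb 5.13, C1ra 3.80, C1s1 2.33 and C3 2.1. In the flank skin it was C4b 18.2, C1qa 11.2, C1qc 5.74, C1ra 5.31, C1s1 4.21, C1qb 3.67, Cfb 1.67, Serping1 1.46 and C3 0.945. C3 was the lowest at both sites and C4b ranked 1 in the flank skin and 5 in the footpad. Every pair of neighbours in either order had overlapping ranges over its 3 tumors, so single steps in the order are not resolved.

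Set against C1q, the 4 genes C1ra, C1s1, C3 and C4b did not act as 1 group. Their mean log2 fold change was 1.07 below that of the C1q chains (-1.07), a difference given with no test because it is a score over chosen genes. Per tumor, their mean log2 CPM minus that of C1q was 1.00, -0.79 and 0.67 in the footpad and 3.73, 0.66 and 0.08 in the flank skin. These overlapped, and without flank skin replicate 1 the difference in fold change was -0.20. Taken singly, C4b minus C1q was 2.20, 1.05 and 1.62 on the log2 scale in the footpad and 5.90, 3.22 and 3.66 in the flank skin, lower in every footpad tumor. C1ra, C1s1 and C3 minus C1q each overlapped between the sites.

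Markers bear on the description of C1q as macrophage and of the other 4 as stromal genes. Of 12 macrophage markers 1 was called higher in the footpad and 0 lower, beside 2.89% and 0.872% of all genes tested. Their summed level was 304 to 365 CPM in the footpad and 151 to 248 CPM in the flank skin, of which Mertk and Lyz2 made up most. Mertk alone was at 112, 79.2 and 85.6 CPM in the footpad against 134, 91.9 and 89.6 CPM in the flank skin. Its log2 fold change was -0.19 (SE 0.21), with an edgeR adjusted p of 0.607, so the sums rest largely on a gene that was not higher in the footpad. None of the macrophage markers was at 0. The mean log2 CPM of the list was 3.49, 2.97 and 3.37 in the footpad and 0.50, 2.97 and 1.93 in the flank skin, lowest in the tumor that was lowest for C1q. C1q minus this mean was -0.54, 0.91 and 0.03 in the footpad and 0.53, 0.58 and 1.05 in the flank skin, and the sites overlapped. Among single markers, r with the mean of the C1q chains was 0.97 for Adgre1, which encodes the antigen F4/80, 0.96 for the mannose receptor Mrc1 and 0.94 for Csf1r, the receptor of the macrophage growth factor. It was 0.20 for Cd68 and -0.91 for Mertk, so not all macrophage markers shared the pattern. Nor was it particular to them, since r was 0.95 for the endothelial receptor gene Kdr and 0.89 for Tnnt3, a gene of skeletal muscle.

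Of 12 fibroblast markers, 8 were called higher in the footpad and 0 lower, beside 2.89% and 0.872% of all genes tested. Their summed level, mostly the collagens Col1a1, Col1a2 and Col3a1, was 2834 to 3854 CPM in the footpad and 135 to 467 CPM in the flank skin. The collagen reads could also come from the graft, as said above. Pi16 and Dpt were at 0 in flank skin replicates 1 and 3. Between the sites C4b had the opposite direction, lower in the footpad, where these markers were higher. Within a site the directions were mixed. In the flank skin both C4b, at 109 against 99.7 CPM, and the mean log2 CPM of the markers, at 3.49 against 1.31, were higher in replicate 2 than in replicate 3. Replicate 1 of each site had the highest C4b and the lowest mean of the markers. It was at 122 CPM and 0.89 in the flank skin, and at 35.4 CPM and 5.53 in the footpad. C1ra and C1s1 were highest in flank skin replicate 1, where the mean of the markers was lowest, and in the other tumors their sites were intermixed. Between the sites C3 had the same direction as the markers, with a log2 fold change of 1.30 (SE 0.76). The sites overlapped for C3, and it was not called, with an edgeR adjusted p of 0.325. Which cells made the transcripts of C1ra, C1s1, C3 and C4b was not tested, and they are named here only by symbol. Hepatocytes are the main source of plasma complement, and their 6 markers summed to at most 0.817 CPM in the footpad and 2.0 CPM in the flank skin, with Alb, Apoa1 and Fgb at 0 in every tumor. The 8 melanocyte markers, which the graft itself expresses, summed to 13547 to 23115 CPM in the footpad and 17389 to 28873 CPM in the flank skin, and 0 of 8 were called. Neutrophil markers summed to 6.23 to 329 CPM in the footpad, lowest in replicate 2, where Serping1, C3 and Cfb were also lowest of that site, and to 4.14 to 27.7 CPM in the flank skin. Endothelial markers summed to 150 to 236 CPM in the footpad and 96.1 to 115 CPM in the flank skin. The part of these cells in the differences of the complement genes was not tested.

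**Figure D3:**
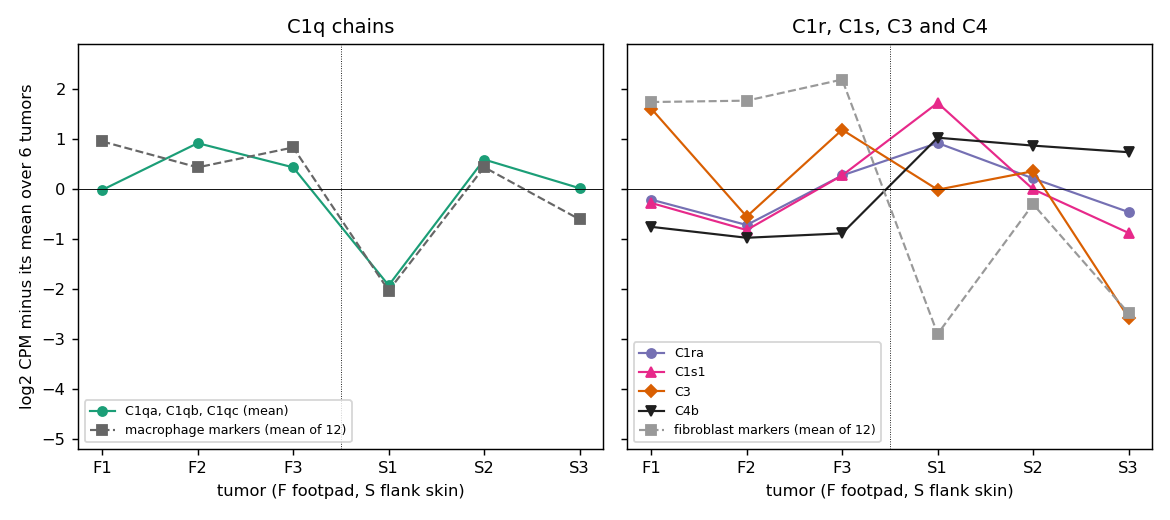
Log2 CPM minus its mean over the 6 tumors (y axis) is plotted for footpad tumors 1 to 3 (F) and flank skin tumors 1 to 3 (S), at left for the mean of the C1q chains and of 12 macrophage markers, at right for C1ra, C1s1, C3, C4b and the mean of 12 fibroblast markers. Flank skin tumor 1 is lowest for C1q and the macrophage markers and highest for C1ra and C1s1, and between the sites C4b and the fibroblast markers differ in opposite directions.

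Genes with the most similar pattern over the 6 tumors were sought among 17200 tested genes other than the 9, near copies included. With the mean of the C1q chains these were Zc3hav1l (r = 0.997), C330018A13Rik (r = 0.996), Lysmd2 (r = 0.992), Nhlrc2 (r = 0.990) and Gm33368 (r = 0.990), and 94 genes exceeded 0.95. With the mean of C1ra and C1s1 they were Mgst2 (r = 0.991), Bfar (r = 0.988), Irgm2 (r = 0.984), Tbc1d15 (r = 0.979) and Mettl6 (r = 0.979), and 40 genes exceeded 0.95. With 6 tumors, many genes reach such values, and they are a description only.

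In the wider pathway, 30 of 51 listed genes could be tested, and 5 were called higher in the footpad and 0 lower, beside the 2.89% and 0.872% of all genes. Their median log2 fold change was 0.71. Of the 51, 10 had 3 reads or fewer in every tumor, of which 7 had none. Among recognition molecules and proteases, Masp1, a protease of the lectin pathway, was at 30.6, 27.2 and 30.2 CPM in the footpad against 0.655, 1.86 and 0.623 CPM in the flank skin. It was 28.0-fold higher in the footpad, with a log2 fold change of 4.81 (SE 0.46) and an edgeR adjusted p of 0.00677. Colec12, a membrane collectin that acts as a scavenger receptor, was at 27.9 to 35.1 CPM in the footpad and 2.69 to 11.4 CPM in the flank skin, with a log2 fold change of 2.27 (SE 0.47) and an edgeR adjusted p of 0.0414. The lectins Mbl1, Mbl2 and Fcnb, which recognise sugars, had no read in any tumor. Fcna of the same list had reads in every tumor, at 0.516 to 0.817 CPM in the footpad and 0.431 to 1.11 CPM in the flank skin. Its log2 fold change was -0.15 (SE 0.48), with an edgeR adjusted p of 0.873. Colec10 and Colec11 had reads in some tumors, at no more than 0.265 CPM, and were not tested. C2, the partner of C4 in the convertase and the highest of this list, was at 48.1, 69.4 and 55.6 CPM in the footpad against 179, 65.9 and 65.9 CPM in the flank skin. Its log2 fold change of -0.85 (SE 0.40) had an edgeR adjusted p of 0.231, and flank skin replicate 1 was again the high tumor.

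**Figure D4:**
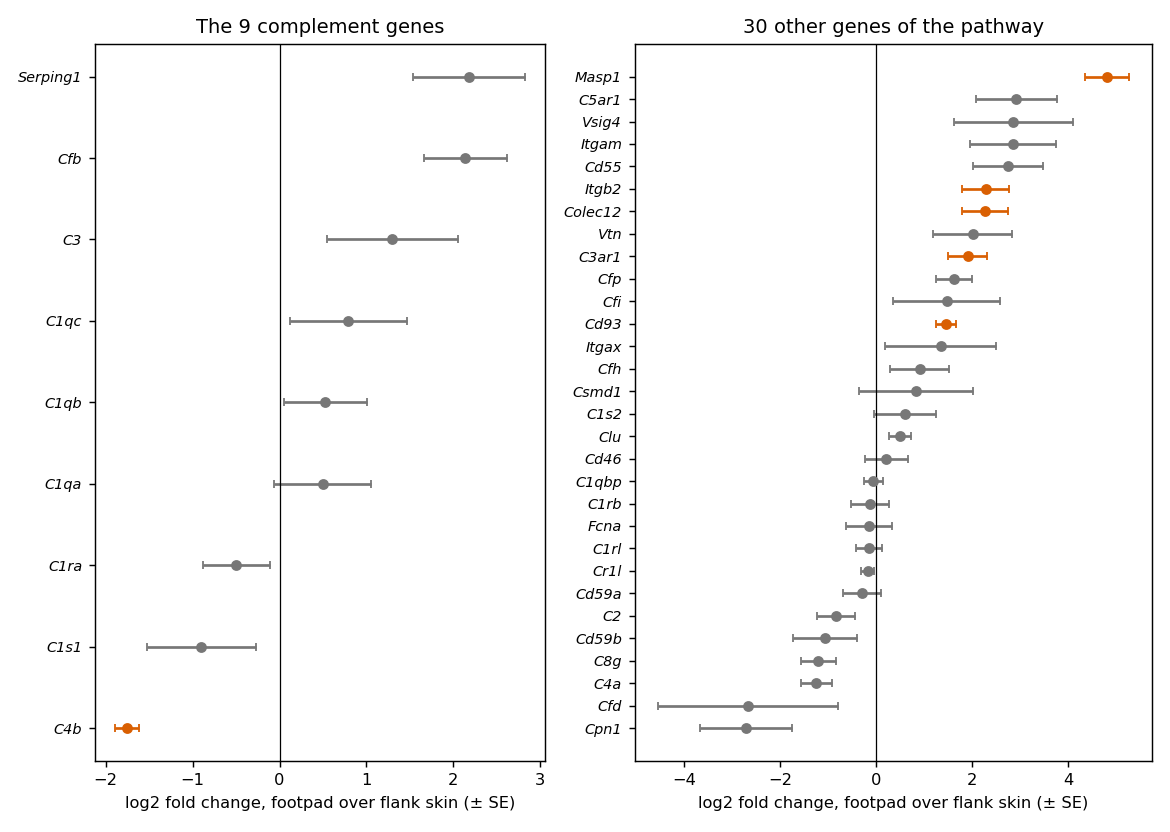
Log2 fold changes of footpad over flank skin with their SE (x axis) are plotted for the 9 complement genes at left and for the 30 other tested genes of the pathway at right, ordered by value, with called genes in orange and the others in grey. C4b is the only called gene at left, and Masp1, Itgb2, Colec12, C3ar1 and Cd93 are called at right.

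Of 8 receptor genes tested, 3 were called higher in the footpad and 0 lower, beside 2.89% and 0.872% of all genes tested. C3ar1, the receptor of the C3a fragment, was at 17, 10.4 and 12.7 CPM in the footpad against 1.93, 5.49 and 3.31 CPM in the flank skin. Its log2 fold change was 1.90 (SE 0.40), with an edgeR adjusted p of 0.0417. Itgb2, the beta chain that complement receptors 3 and 4 share, was at 38.7, 13.7 and 21.3 CPM in the footpad against 3.26, 8.19 and 3.66 CPM in the flank skin, with a log2 fold change of 2.28 (SE 0.49) and an edgeR adjusted p of 0.0442. Cd93, a membrane protein of endothelial and myeloid cells, was at 105, 78.1 and 105 CPM in the footpad against 25.6, 39.2 and 40.2 CPM in the flank skin, with a log2 fold change of 1.45 (SE 0.21) and an edgeR adjusted p of 0.0192. All 3 were higher in every footpad tumor, as were 17.5% of all genes tested, alongside the macrophage and endothelial marker levels given above. C5ar1, the receptor of C5a, was higher in every footpad tumor with a log2 fold change of 2.92 (SE 0.84) and was not called, with an edgeR adjusted p of 0.0852. C1qbp, a mitochondrial protein that binds C1q, was at 86.4 to 104 CPM in the footpad and 71.4 to 118 CPM in the flank skin, with a log2 fold change of -0.06 and an edgeR adjusted p of 0.879. Without flank skin replicate 1, Cd93 and Masp1 were the only pathway genes called, and without footpad replicate 1, or without flank skin replicate 3, Masp1 alone was.

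Among the other branches 0 genes were called. Cfp, which encodes properdin, the stabiliser of the alternative convertase, was at 5.84, 5.59 and 5.90 CPM in the footpad against 0.966, 2.60 and 2.05 CPM in the flank skin. Its log2 fold change of 1.62 (SE 0.38) had an edgeR adjusted p of 0.0539. Cfd encodes factor D, the protease that activates factor B. It was at 0, 0.365 and 0.204 CPM in the footpad against 0, 3.71 and 0.0479 CPM in the flank skin. Only flank skin replicate 2 was high, and the log2 fold change of -2.66 (SE 1.88) had an edgeR adjusted p of 0.411. Of 7 terminal components only C8g could be tested, at 0.714 to 1.08 CPM in the footpad and 1.76 to 2.95 CPM in the flank skin, with a log2 fold change of -1.21 and an edgeR adjusted p of 0.0982. Hc, the mouse C5 gene, had reads in flank skin replicate 2 only, at 0.308 CPM. The soluble regulator with the highest mean, Clu, was at 5.12 to 6.21 CPM in the footpad and 3.66 to 4.49 CPM in the flank skin, with a log2 fold change of 0.50 and an edgeR adjusted p of 0.222. The membrane regulators, which protect a cell's own surface, gave 0 calls among 5 tested. Cr1l, which encodes the rodent regulator Crry and was the highest of them, was at 32.3, 35.9 and 36.4 CPM in the footpad against 41.8, 35.6 and 41.4 CPM in the flank skin, with a log2 fold change of -0.18 (SE 0.13) and an edgeR adjusted p of 0.416. Cd59a, an inhibitor of the membrane attack complex, had a log2 fold change of -0.29 (SE 0.40) and an edgeR adjusted p of 0.679. Cd55, which speeds the decay of convertases, was higher in every footpad tumor, at 1.14 to 3.03 CPM against 0.0639 to 0.466 CPM, with a log2 fold change of 2.75 (SE 0.72) and an edgeR adjusted p of 0.0699.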

How the data were processed

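RNA of 3 footpad and 3 flank skin B16F10 tumors was analysed, grouped by the sample labels. Per the submitters' processing notes and the methods of the study, stranded total RNA reads were checked with FastQC 0.11.7, trimmed with Trimmomatic and aligned to mm10 with HISAT2 2.1.0. The authors deposited a table of raw read counts for each gene and, for each tumor, FPKM values that correct for length and depth. The counting program is not given in the sources used here, nor is how it handled reads with more than 1 match. Of 45777 genes, 45679 matched RefSeq identifiers of GRCm38.p6, the source of coordinates and promoter windows (windows of 5 of the 9 genes were held).

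The deposited counts were fitted by quasi-likelihood in edgeR 4.0.16 under R 4.3.3 (glmQLFit and glmQLFTest after filterByExpr, TMM scaling, Benjamini-Hochberg adjustment over all genes tested). The SE was taken as the log2 fold change divided by the square root of F. FPKM compared levels between genes. Fits were tested on simulated data. The complement genes, pathway lists and markers were chosen with earlier results of these data known. Named genes were all 9 members, the pathway genes called, the highest of each list, Cr1l, Cd55, Cd59a, C3ar1 and C5ar1, the markers on which sums rest, and the 5 genes most like C1q and like C1ra and C1s1. Other genes named, such as C4a, Mbl1, Mbl2, Fcnb, Fcna, Colec10, Colec11, Cfd, Hc and those near C4b, were picked with their values in view. Alternatives were DESeq2 1.42.0, limma 3.58.1 on log2(FPKM + 1) and log2(FPKM + 0.1), other filters and scaling, a replicate block, other thresholds, leaving out each tumor and, added after the data were seen, near-identical copies summed. Figures were made in Python 3.11.15 with matplotlib 3.10.9.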

Additional observations from a re-analysis of the deposited data

How the results depend on the processing

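Which genes were called depended on the settings, while of the 14 fold changes and the difference between gene sets followed through the alternatives only C1s1 changed sign. Of the 9 members, 1 was called in the fit described, 3 by DESeq2 and at an adjusted p under 0.1 (C4b, Cfb and Serping1), 2 with no filter on low counts and with 10 counts in every tumor (C4b and Cfb), and 0 to 2 when a tumor was left out. Of the wider pathway genes 5 were called, 10 by DESeq2 and 10 at an adjusted p under 0.1, 1 by limma on log2(FPKM + 1), 3 on log2(FPKM + 0.1), and 0 to 8 when a tumor was left out. Between deviations of same-numbered tumors r was 0.05, -0.10 and -0.11, which cannot show whether they shared an animal. With the replicate block, which treats same-numbered tumors as pairs, 0 members, 0 pathway genes and 0 of all genes were called, with C4b at -1.75. Serping1 was 2.17 by DESeq2. Cfb was 2.13 by DESeq2, 2.13 with no filter and 2.16 with 10 counts in every tumor. Leaving out a tumor gave -1.83 to -1.68 for C4b, 1.74 to 2.73 for Cfb and -1.32 to 0.16 for C1s1, whose sign turned at 0.16 without flank skin replicate 1. Without footpad replicate 3 no gene of the table was called. The difference between C1r, C1s, C3, C4 and C1q stayed between -1.55 and -0.20 in 14 alternatives. The cause of these changes was not tested. With 3 tumors a site and a common coefficient of variation of 0.338 between tumors, the spread of tumors limits precision more than depth.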

Other observations

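C4b, C4a, Cfb and C2 lie within the same stretch of chromosome 17 with genes of other functions, and their neighbours were looked at after the values of C4b and Cfb were seen. From C4b to C2 (chr17:34728139-34882100), C4b alone was called. Stk19, Dxo, Skiv2l and Nelfe, which lie between C4a and Cfb, had log2 fold changes of 0.00, 0.07, 0.09 and -0.22 and overlapped between the sites, with edgeR adjusted p of 0.993, 0.855, 0.722 and 0.413. C4b at -1.75 and Cfb at 2.14 thus stood on either side of 4 genes whose values were near 0. Cfb ends at 34862514 and C2 starts at 34862602, so the neighbours do not overlap. Cfb had a log2 fold change of 2.14 and C2 of -0.85 (SE 0.40), with an edgeR adjusted p of 0.231 for C2. The sites overlapped for C2. Flank skin replicate 1 was at 179 CPM, while replicates 2 and 3, each at 65.9 CPM, lay within the footpad range of 48.1 to 69.4 CPM. The pseudogene Stk19-ps1, next to C4b, had a log2 fold change of -0.36 (SE 1.01).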
